A study of Mus musculus with 6 samples.

Results

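The interferon-inducible GTPases described here are mouse genes of 3 protein families, the guanylate-binding proteins (GBP), the immunity-related GTPases (IRG) and the very large inducible GTPases (GVIN). The genes were selected on their measured difference between the genotypes in these same 6 regions and then listed by name, and 9 of the 10 listed names have a row among the 13264 targets of the deposited table. These are Gbp2, Gbp3 and Gbp7, the IRG genes Irgm1, Irgm2, Igtp, Iigp1 and Tgtp1, and Gvin1, while Gbp4 was not analysed here. The regions came from mouse cholangiocarcinoma, a cancer of the bile ducts, grown from the SB cell line and profiled with the GeoMx whole transcriptome assay, which releases and sequences probe tags from a chosen area of a section. Collection in each region was limited to areas that stained for Desmin and not for CD45, which aims at fibroblasts of the tumour and at stellate cells of the liver. Of the 6 regions, 3 were labelled Cd274F/F Col1A1Cre, with floxed alleles of Cd274 (which encodes the T cell checkpoint ligand PD-L1), and 3 were labelled Cd274+/+ Col1A1Cre, with intact alleles. Both groups carried the Cre, which the Col1a1 promoter drives in collagen-producing cells, so cells of other types in the mask would keep a floxed Cd274. No source used here gives the number or age of the animals or ties a region to an animal. A single slide held all 6 regions, numbered 11 to 13 for Cd274F/F and 14 to 16 for Cd274+/+, so that the genotype and this block of areas cannot be told apart. Since an animal may have given several regions, p-values over regions may be too small.

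Interferon-gamma binds its receptor and activates the kinases JAK1 and JAK2, which signal to transcription factors of the nucleus. These factors act through GAS elements and ISRE elements in the promoters of interferon-stimulated genes, and IRF1, itself induced, binds ISRE elements. GBP and IRG proteins are among the most strongly induced products of this pathway in mouse cells, where they gather on the vacuoles of intracellular parasites and bacteria and break them open. Within the IRG family Irgm1, Irgm2 and Igtp are regulators that sit on the cell's own membranes and hold the effectors Iigp1 and Tgtp1 inactive there.

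The promoters of 7 of the 9 genes are in the RefSeq promoter table of GRCm38.p6. The letters just before each transcript start are shown to mark where they match the GAS and ISRE motifs. Motifs were searched over windows of 300 bases, from 250 before to 50 after each start. The GAS motif was TTCNNNGAA, which reads the same on both strands, and the ISRE motif was GAAANNGAAA or, on the other strand, TTTCNNTTTC. The last 120 bases before the start are printed 5′ to 3′ on the strand of the gene, with matches in capitals. The stretches are chr11:58199436-58199555 on the plus strand for Igtp, chr11:58214857-58214976 on the plus strand for Irgm2 and chr11:48992247-48992366 on the minus strand for Tgtp1. Irgm1 is at chr11:48871421-48871540 on the minus strand, and Gbp2, Gbp3 and Gbp7 are at chr3:142620543-142620662, chr3:142559924-142560043 and chr3:142530216-142530335 on the plus strand.
Igtp: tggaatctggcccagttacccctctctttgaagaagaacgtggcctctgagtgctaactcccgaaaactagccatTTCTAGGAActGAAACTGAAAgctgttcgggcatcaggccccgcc
Irgm2: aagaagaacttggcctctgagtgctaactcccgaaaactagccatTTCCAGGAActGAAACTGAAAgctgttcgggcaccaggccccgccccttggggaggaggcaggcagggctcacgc
Tgtp1: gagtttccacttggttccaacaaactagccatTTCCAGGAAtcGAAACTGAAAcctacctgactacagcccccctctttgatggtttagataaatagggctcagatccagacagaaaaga
Irgm1: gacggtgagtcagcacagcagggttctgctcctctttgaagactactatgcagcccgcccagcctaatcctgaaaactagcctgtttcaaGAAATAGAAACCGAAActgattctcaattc
Gbp2: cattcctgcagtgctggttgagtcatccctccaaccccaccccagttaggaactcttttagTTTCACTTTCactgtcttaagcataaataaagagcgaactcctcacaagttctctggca
Gbp3: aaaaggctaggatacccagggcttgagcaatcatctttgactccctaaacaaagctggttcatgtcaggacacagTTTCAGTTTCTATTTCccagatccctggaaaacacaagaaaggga
Gbp7: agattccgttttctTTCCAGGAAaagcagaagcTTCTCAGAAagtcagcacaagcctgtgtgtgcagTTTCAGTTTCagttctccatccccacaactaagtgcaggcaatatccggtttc

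All 7 promoters held the ISRE letters, which occur in 3.44% of the 32851 promoters of the table. In Irgm1 and Gbp3 a pair of ISRE matches overlapped, and the other annotated start of Gbp3 held neither motif. The GAS letters were found in 4 of the 7, Gbp7, Igtp, Irgm2 and Tgtp1, against 8.30% of all promoters. In Igtp, Irgm2 and Tgtp1 the GAS match began exactly 11 bases before the ISRE match, an arrangement noticed on reading these sequences. It occurred in 5 of the 32851 promoters, and the others were Tgtp2 and Gm12185, which lie near Tgtp1 and Irgm1 in the IRG gene cluster of chromosome 11. Over 40 bases anchored at the GAS match, Igtp and Irgm2, which are neighbouring genes, were identical at 39, Igtp and Tgtp1 at 31, and Irgm2 and Tgtp1 at 32. A match of letters is a description and does not show that a factor binds there. Gm12185, the measured gene with this arrangement outside the list, read 9.25, 19.6 and 22.4 Q3-scaled units in the Cd274F/F regions and 9.82, 11.4 and 10.3 in the Cd274+/+ regions, and the groups overlapped (limma, adjusted p = 0.548). It lay near background, at 1.94, 2.81 and 4.16 times the negative probe against 1.94, 2.34 and 2.16, so its overlap says little. Outside the listed genes, 48 targets that rose in the comparison below had a promoter in the table, and 18.8% of them held the ISRE letters and 20.8% the GAS letters, against 3.75% and 8.37% of the 10521 measured targets with a promoter. Those targets were called from these same regions and include relatives and pathway genes such as Gbp5, Stat2 and Irf1, so nothing is read from these shares. Among 5 other family genes with a promoter, called or not, 2 held the ISRE letters and 1 the GAS letters.

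**Figure D1:**
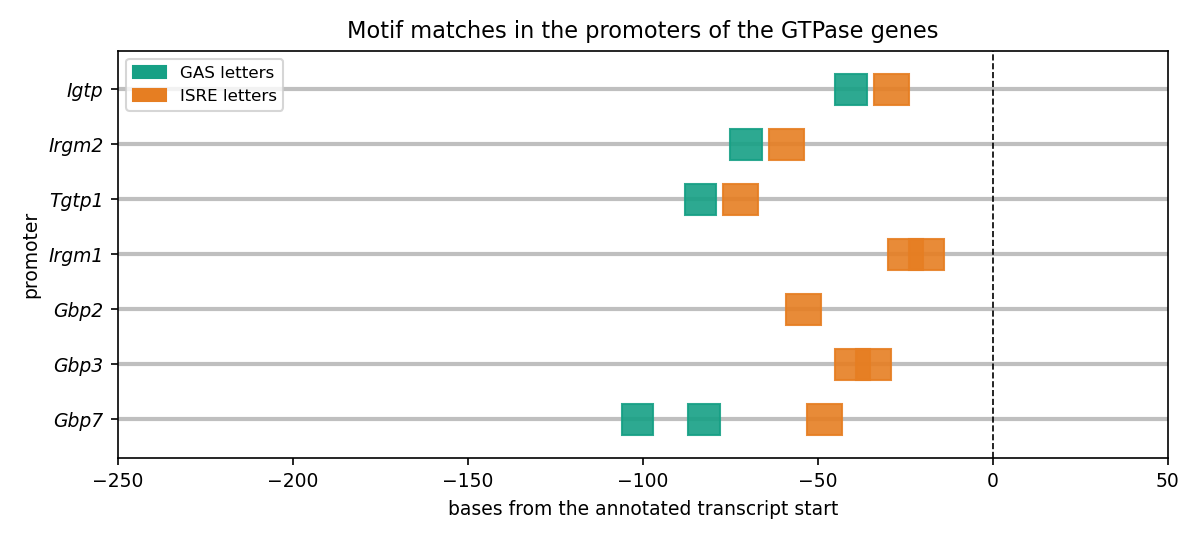
Matches to the GAS letters (green) and ISRE letters (orange) in 7 promoters of GTPase genes, on a horizontal axis in bases from the annotated transcript start (dashed line), each grey line 1 promoter. In Igtp, Irgm2 and Tgtp1 the GAS match begins 11 bases before the ISRE match, while Irgm1, Gbp2 and Gbp3 show ISRE matches alone.

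Signal differed widely between the groups before any gene was compared. The summed deposited signal was 223253 to 393615 in the Cd274F/F regions and 720786 to 1024178 in the Cd274+/+ regions, and the negative probe, which matches no mouse transcript, read 3.18 to 3.98 and 6.84 to 9.41. Values are therefore given Q3-scaled, that is, multiplied so that the 75th percentile of targets is the same in all regions, by factors of 1.32 to 2.20 in the Cd274F/F regions and 0.505 to 0.711 in the Cd274+/+ regions. On this scale the negative probe read 4.77, 6.97 and 5.39 in Cd274F/F regions 1, 2 and 3 and 5.06, 4.86 and 4.76 in Cd274+/+ regions 1, 2 and 3. Probes differ in efficiency, so levels are compared between regions and not between genes. Cd274 itself read 11.1, 17.4 and 29.2 in the Cd274F/F regions and 10.6, 14.2 and 13.4 in the Cd274+/+ regions, so the targeted gene did not separate the labels (limma, adjusted p = 0.610). In the Cd274F/F regions it lay at 2.33, 2.50 and 5.41 times the negative probe. With intact alleles Cd274 was near background, at 2.09, 2.93 and 2.81 times in the Cd274+/+ regions. A loss of Cd274 transcript could hardly be seen at such levels. No source used here says which part of the transcript its probe covers. All directions below rest on the labels.

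The collagen genes of the label were abundant in every region, Col1a1 at 1411 to 2265 Q3-scaled units in the Cd274F/F regions and 2484 to 3738 in the Cd274+/+ regions. Genes of other cell types were present too: Alb, the hepatocyte albumin, read 1169 to 5073 and 1970 to 2970, and Krt8, an epithelial keratin, 409 to 744 and 756 to 1049. In such bulk regions fewer cells of a type and less RNA per cell cannot be told apart.

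All 9 GTPase genes read higher in each Cd274F/F region than in any Cd274+/+ region, with folds of the group means from 3.15 for Gbp7 to 5.93 for Gvin1. The median log2 difference over the 9 genes was 2.13, beside 0.02 for all 13264 targets. These genes were chosen because of this contrast, so their differences are a description and carry no test. Of all targets 9.99% lay wholly above and 9.06% wholly below in the Cd274F/F regions, and 0.588% were called higher by limma at an adjusted p under 0.05 (Benjamini-Hochberg), beside 9 and 8 of the 9 GTPase genes, and nothing is read from that contrast of shares. All log2 differences are Cd274F/F minus Cd274+/+ on the log2(value + 1) scale, which understates the changes of low genes.

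**Figure D2:**
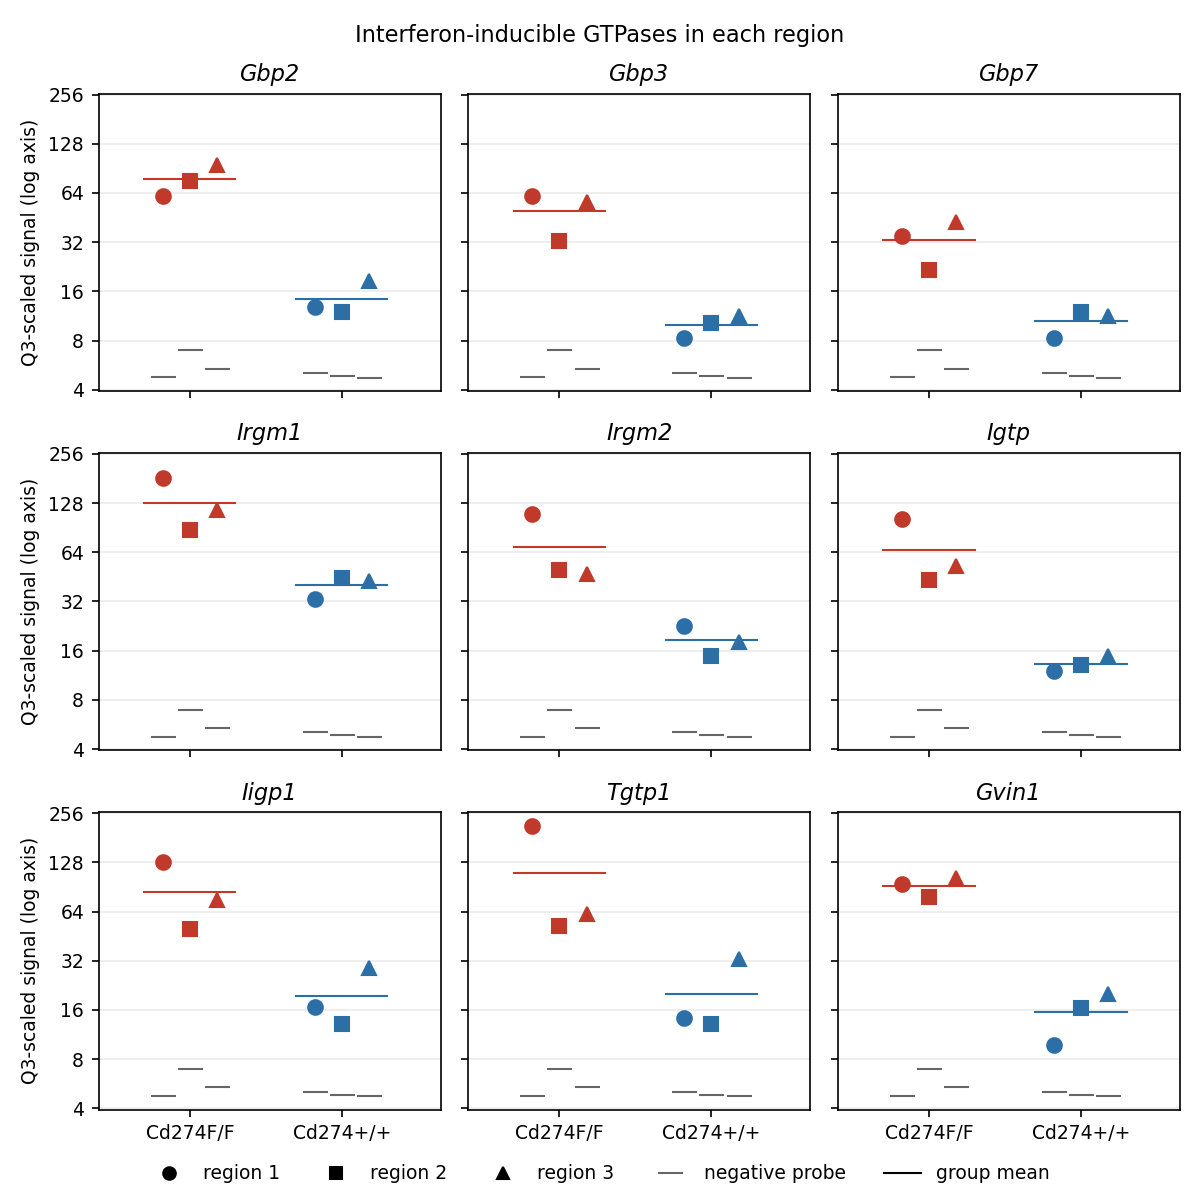
Q3-scaled signal (vertical log axis) of each GTPase gene in 3 Cd274F/F regions (red, left) and 3 Cd274+/+ regions (blue, right), with symbols for regions 1, 2 and 3, coloured lines for group means and grey ticks for the negative probe. Every red point lies above every blue point of its panel, and for the 5 IRG genes, Irgm1, Irgm2, Igtp, Iigp1 and Tgtp1, region 1 is the highest red point.

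Among the GBP genes, Gbp2, whose protein coats vacuoles that hold parasites and bacteria, read 61.1, 76.2 and 95.3 Q3-scaled units in the Cd274F/F regions and 12.8, 12.0 and 18.5 in the Cd274+/+ regions. The means were 77.5 ± 17.2 and 14.4 ± 3.55 (SD, n = 3 each), a log2 difference of 2.35 ± 0.26 (SE). The lowest Cd274F/F region stood 3.30 times above the highest Cd274+/+ region, the widest gap of the 9 genes after Gvin1. Gbp3, a further GBP of the same chromosome 3 cluster, read 61.1, 32.7 and 56.1 against 8.31, 10.3 and 11.3. Its means were 49.9 ± 15.2 and 9.96 ± 1.52, a log2 difference of 2.18 ± 0.29 (SE), and Cd274F/F region 2 was the low one of its group. In the Cd274+/+ regions Gbp3 lay 2.04 ± 0.37 times above the negative probe, close to background, which leaves the size of its difference uncertain. Gbp7, whose protein helps assemble the phagocyte oxidase on vacuoles, read 35.2, 21.8 and 42.6 against 8.31, 12.0 and 11.3. Its means were 33.2 ± 10.6 and 10.5 ± 1.95 (SD, n = 3 each), and its log2 difference of 1.53 ± 0.31 (SE) was the smallest of the 9. Gbp7 too was near background in the Cd274+/+ regions, at 2.16 ± 0.45 times the negative probe, and in Cd274F/F region 2 it reached only 3.12 times.

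Among the IRG regulators, Irgm1, which acts at the Golgi, mitochondria and lysosomes and in autophagy, read 181, 87.1 and 117 Q3-scaled units in the Cd274F/F regions and 33.2, 44.4 and 42.7 in the Cd274+/+ regions. It was the clearest of the 9 genes over background in the Cd274+/+ regions, at 8.23 ± 1.44 times the negative probe (SD, n = 3), and 24.1 ± 12.9 times in the Cd274F/F regions. The log2 difference was 1.60 ± 0.28 (SE). Irgm2, a Golgi-associated regulator, read 109, 50.1 and 47.1 against 22.7, 14.8 and 17.99, a log2 difference of 1.75 ± 0.32 (SE). Igtp, also named Irgm3, which resides at the endoplasmic reticulum and lipid droplets, read 102, 43.5 and 52.7 against 12.1, 13.1 and 14.9, a log2 difference of 2.13 ± 0.31 (SE). The 3 Cd274+/+ regions were close together for Igtp, where the highest was 1.23 times the lowest, while in the Cd274F/F regions this ratio was 2.34. For all 3 regulators Cd274F/F region 1 stood above regions 2 and 3.

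Of the IRG effectors, Iigp1, also named Irga6, read 128, 50.1 and 75.2 Q3-scaled units in the Cd274F/F regions and 16.6, 13.1 and 28.8 in the Cd274+/+ regions. The log2 difference was 2.03 ± 0.36 (SE). Tgtp1, also named Irgb6, read 215, 52.3 and 61.7 against 14.4, 13.1 and 32.9, a log2 difference of 2.21 ± 0.48 (SE), the largest SE of the 9 genes. Tgtp1 rested most on a single region: without Cd274F/F region 1 its log2 difference was 1.57, and the lowest Cd274F/F region stood 1.59 times above the highest Cd274+/+ region, the narrowest gap of the 9. Tgtp2, a neighbour of Tgtp1, was not analysed here, and a probe to Tgtp1 may also bind it.

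Gvin1 encodes a very large interferon-inducible GTPase whose function is poorly known. It read 94.4, 78.4 and 102 Q3-scaled units in the Cd274F/F regions and 9.82, 16.5 and 20.1 in the Cd274+/+ regions. Its means of 91.6 ± 12.1 and 15.5 ± 5.20 (SD, n = 3 each) gave the largest log2 difference of the 9 genes, 2.54 ± 0.28 (SE). The Cd274F/F regions were also the closest together for Gvin1, the highest being 1.30 times the lowest, and the lowest of them stood 3.91 times above the highest Cd274+/+ region.

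The regions of a group did not order the families alike. All 5 IRG genes were highest in Cd274F/F region 1, as was Gbp3, while Gbp2, Gbp7 and Gvin1 were highest in region 3. Cd274F/F regions 1 and 3 lay close for Gbp3 (61.1 and 56.1 units), Gbp7 (35.2 and 42.6) and Gvin1 (94.4 and 102), so the order of these regions is uncertain there. Region 2 was the lowest for 7 of the 9 genes, all but Gbp2 and Irgm2, and the highest for none. Over all targets, 28.2%, 40.7% and 31.2% were highest in Cd274F/F regions 1, 2 and 3. On the log2 scale the mean of the 5 IRG genes was 7.15, 5.80 and 6.09 in Cd274F/F regions 1, 2 and 3 and 4.29, 4.19 and 4.73 in the Cd274+/+ regions. The mean of the 3 GBP genes was 5.70, 5.28 and 5.96 against 3.41, 3.63 and 3.84. The difference between the IRG and GBP means was thus 1.45, 0.52 and 0.13 in the Cd274F/F regions and 0.88, 0.56 and 0.89 in the Cd274+/+ regions, so the regions of the groups overlapped in the balance of the families. The mean of the effectors Iigp1 and Tgtp1 minus that of the regulators was 0.39, -0.17 and 0.04 in the Cd274F/F regions. It was -0.42, -0.62 and 0.43 in the Cd274+/+ regions, again with overlap. Since probes differ in efficiency, such differences between genes are compared only from region to region. Within the Cd274+/+ group, region 3 was the highest for 6 of the 9 genes, beside 31.6% of all targets. Tgtp1 and Iigp1 were farthest above their group means there, by 0.80 and 0.61.

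**Figure D3:**
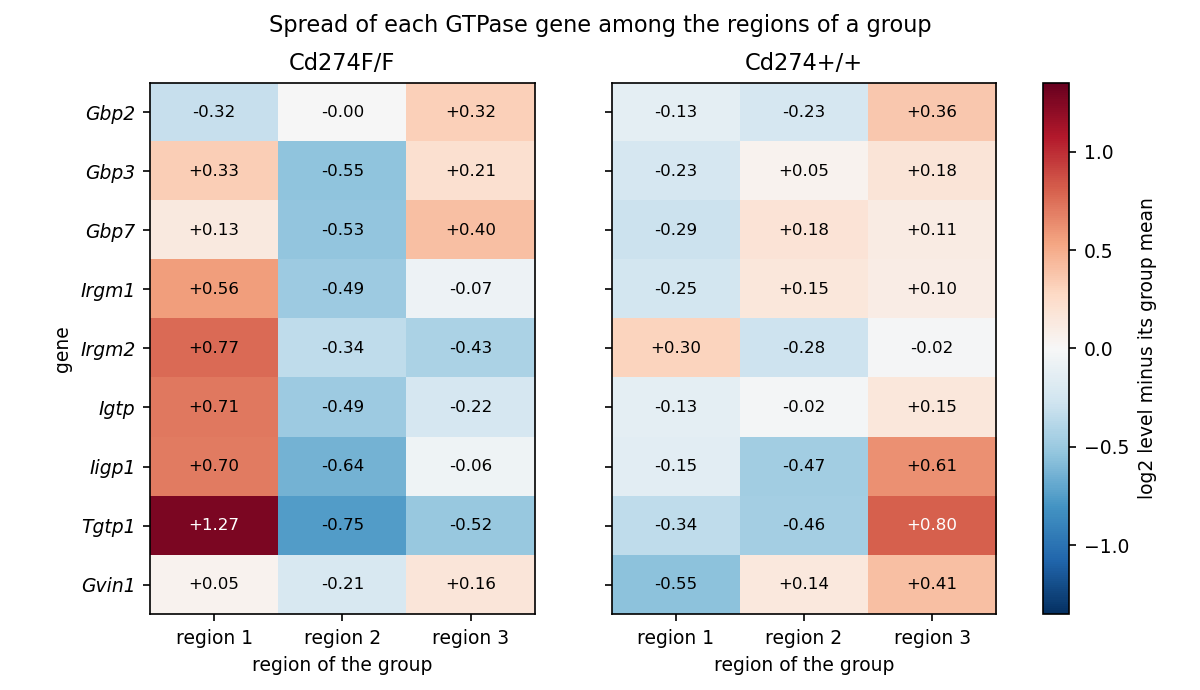
Log2 level of each GTPase gene minus the mean of its group, for regions 1 to 3 of the Cd274F/F group (left) and the Cd274+/+ group (right), in red above and blue below the group mean. Cd274F/F region 1 is red for the 5 IRG genes, up to 1.27 for Tgtp1, and blue for Gbp2 at -0.32.

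Precision was limited by low signal. Nearly all deposited values were whole multiples of a step that differed between regions. If a step is 1 tag, the values of the 9 genes rested on 10 to 116 tags in the Cd274F/F regions and 11 to 83 in the Cd274+/+ regions, and the lowest of these, Gbp7 in Cd274F/F region 2 and Gbp3 and Gbp7 in Cd274+/+ region 1, carry a counting error alone of 31.6% and 30.2%. Read as multiples of the negative probe of the same region, all 9 genes again lay higher in each Cd274F/F region than in any Cd274+/+ region, where 5.74% of all targets did. As deposited, with no further scaling, 0 of the 9 genes had groups that did not overlap, while 0.106% of all targets lay wholly above and 75.5% wholly below in the Cd274F/F regions. On that scale the 9 log2 differences were 0.29 to 1.26, beside -1.22 for the median target, so the higher level of the GTPase genes is relative to other targets of the same region.

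**Figure D4:**
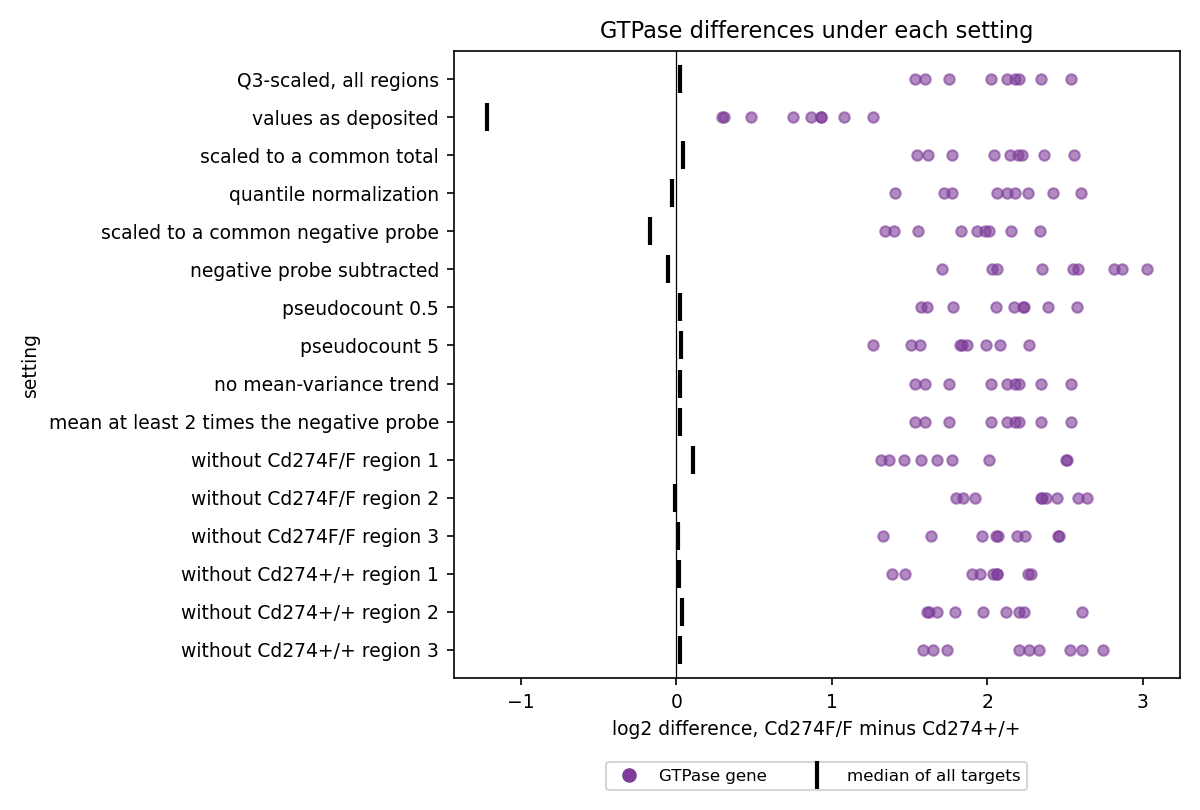
Log2 difference of the 9 GTPase genes (purple points), Cd274F/F minus Cd274+/+, and of the median target (black ticks) under each scaling, pseudocount, variance model and filter, and with each region left out, 1 setting per row. All points lie right of 0, at 0.29 to 1.26 with values as deposited and at 1.53 to 2.54 with Q3 scaling and all regions.

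Of 30 further names of these families, written as a list with the results above known, 9 had a row in the table. All 9 had a difference above 0, and 3 rose over all targets (limma, Benjamini-Hochberg, adjusted p under 0.05), while 0 fell, beside 0.588% called higher and 0.113% called lower over all targets. The median log2 difference was 0.97. Gbp6, which lies with Gbp4 and Gbp10 in the GBP cluster of chromosome 5, read 209, 222 and 191 Q3-scaled units in the Cd274F/F regions and 38.5, 66.1 and 60.2 in the Cd274+/+ regions. It rose by 1.93 ± 0.25 (SE, limma adjusted p = 0.0044) and kept its call with each region left out. Gbp5, whose protein promotes inflammasome assembly and which lies next to Gbp7, read 29.6, 34.8 and 25.8 against 7.55, 5.12 and 10.8, at 1.61 times the negative probe in the Cd274+/+ regions, and rose by 1.86 ± 0.32 (limma adjusted p = 0.0236). Gm5431, the neighbour of Irgm1 that the annotation also names Irgb9b8, read 49.97, 65.3 and 58.3 against 20.4, 25.1 and 27.2 and rose by 1.22 ± 0.23 (limma adjusted p = 0.0346). In fits that each omitted 1 region, the limma adjusted p of Gbp5 was 0.0702 and 0.109 without Cd274F/F region 2 or 3, 0.121 and 0.129 without Cd274+/+ region 1 or 2, and under the threshold in the other fits. Gm5431 kept its call only without Cd274F/F region 1 (0.0039), and its limma adjusted p ran to 0.235 without Cd274+/+ region 1. As deposited, Gm5431 had a log2 difference of -0.06.

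The other 6 family genes had no call. F830016B08Rik, also named Ifgga4, read 51.8, 34.8 and 24.7 Q3-scaled units in the Cd274F/F regions and 12.8, 12.0 and 17.0 in the Cd274+/+ regions, without overlap and with a limma adjusted p of 0.084. Ifi47, also named Irgd, read 38.9, 34.8 and 42.6 against 18.1, 17.1 and 23.1, without overlap, with a log2 difference of 0.97 ± 0.24 (SE) and a limma adjusted p of 0.110, and its direction turned as deposited (-0.30). The differences of 9930111J21Rik1 and Gm4951 were 0.82 ± 0.27 and 0.72 ± 0.33. Irgc1 and Irgq are IRG relatives that interferon does not induce in mouse. Irgq read 27.8, 24.0 and 31.4 against 17.4, 25.1 and 17.0, with overlap, a log2 difference of 0.48 (95% interval -0.08 to 1.04) and a limma adjusted p of 0.462. Irgc1, a testis gene, lay near background at 2.16 and 1.44 times the negative probe, with a log2 difference of 0.63 (95% interval -0.48 to 1.74).

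**Figure D5:**
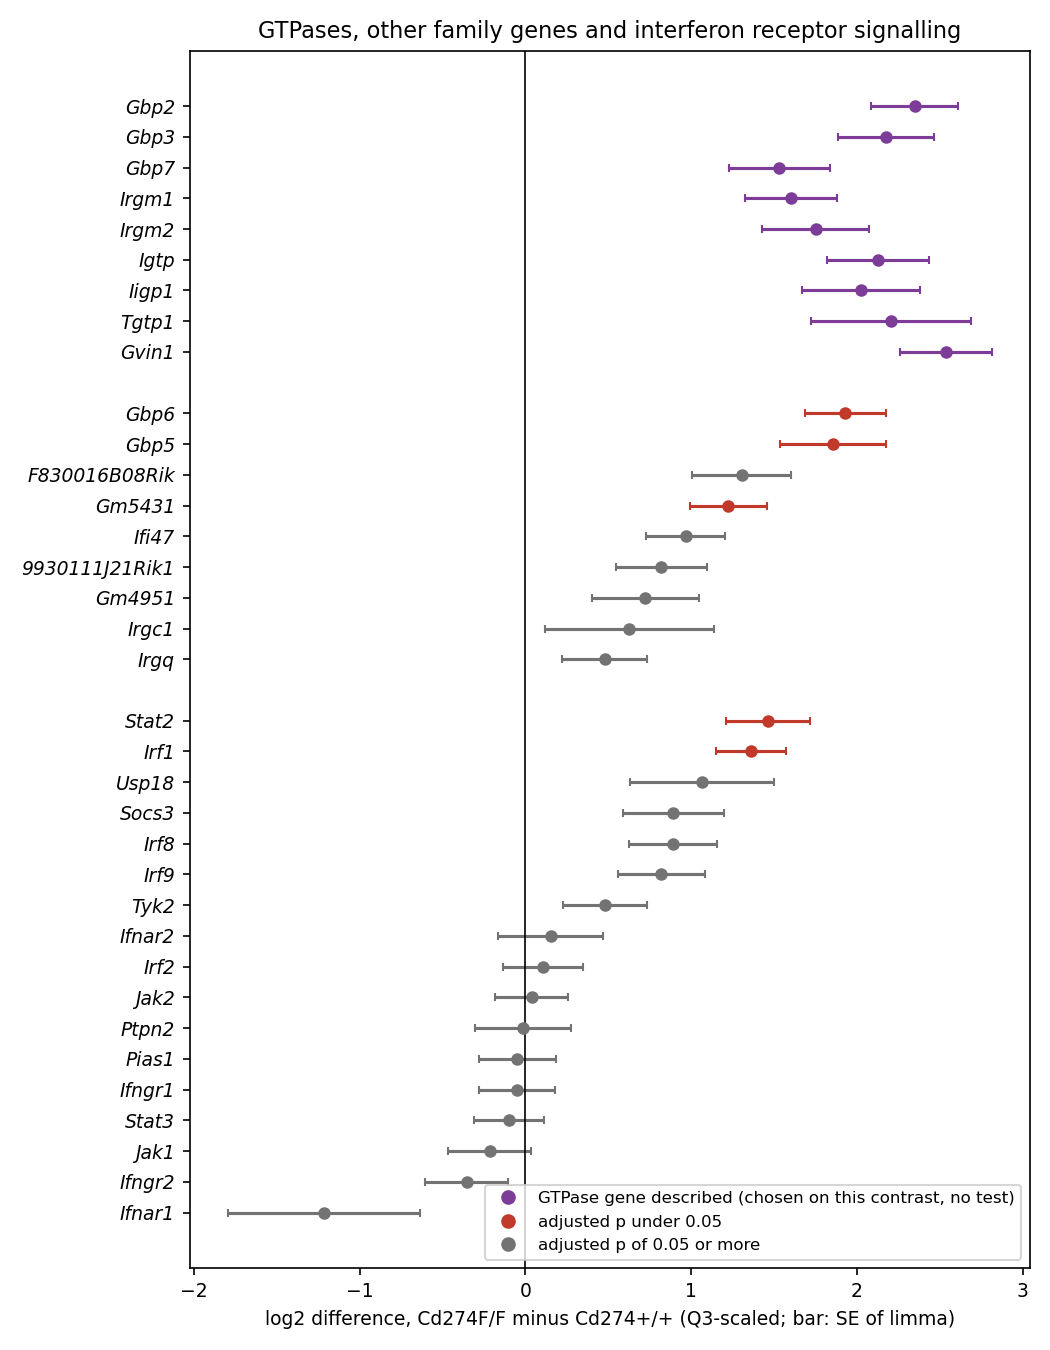
Log2 difference, Cd274F/F minus Cd274+/+, with the SE of limma as bars, for the 9 GTPase genes (purple, not tested), 9 further family genes and 17 genes of interferon receptor signalling (red where the adjusted p was under 0.05, grey otherwise). Gbp5, Gbp6 and Gm5431 are red in the family group and Stat2 and Irf1 in the signalling group, while Ifngr1, Jak1 and Jak2 lie within 0.3 of 0.

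Upstream of the GTPases, 3 of 18 measured genes of interferon receptor signalling rose and 0 fell (limma, Benjamini-Hochberg). Of all targets 0.588% were called higher and 0.113% lower, and the median log2 difference of the 18 genes was 0.13. In the Cd274F/F regions 6 of the 18 lay wholly higher and 1 wholly lower, beside 9.99% and 9.06% of all targets. Among the 3 called genes were transcription factors of the pathway. Stat2 read 53.7, 63.1 and 52.7 Q3-scaled units in the Cd274F/F regions and 14.4, 22.2 and 24.2 in the Cd274+/+ regions, and Irf1 read 194, 179 and 157 against 64.2, 70.05 and 69.9, both without overlap. Stat2 rose by 1.46 ± 0.25 (SE, limma adjusted p = 0.0236) and Irf1 by 1.36 ± 0.21 (limma adjusted p = 0.0128). Unlike the IRG genes, Stat2 was highest in Cd274F/F region 2, while Irf1 was highest in region 1. The receptor chains and their kinases had no call: Ifngr1 read 40.7, 45.7 and 34.8 against 36.3, 47.3 and 42.2, with overlap. Ifngr2 read 33.3, 21.8 and 33.7 against 34.8, 34.7 and 43.2, wholly lower without a call (limma adjusted p = 0.583). Ifnar1, a chain of the type I interferon receptor, read 22.2, 2.18 and 8.97 against 15.1, 26.2 and 20.1, with overlap and a log2 difference of -1.22 ± 0.58 (SE, limma adjusted p = 0.410). In Cd274F/F regions 2 and 3 Ifnar1 lay at 0.31 and 1.66 times the negative probe, which leaves the size of its difference uncertain. The 95% intervals of the log2 difference were -0.55 to 0.44 for Ifngr1, -0.90 to 0.19 for Ifngr2, -0.77 to 0.33 for Jak1 and -0.44 to 0.52 for Jak2. Irf9, Irf8 and Socs3, a feedback inhibitor, lay wholly higher in the Cd274F/F regions without a call, with log2 differences of 0.82, 0.89 and 0.89. Usp18, which dampens type I interferon signalling, had a log2 difference of 1.07, with overlap and without a call. Ifng, the gene of the ligand, and Socs1 were not analysed here. The call of Irf1 held without Cd274F/F region 1 or 2 alone and that of Stat2 without Cd274F/F region 1 alone. In the other fits with a region left out, the limma adjusted p was 0.051 to 0.121 for Irf1 and 0.057 to 0.153 for Stat2, the highest in each case without Cd274+/+ region 1.

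In the further lists, of partner genes and relatives of the GTPases, few genes were called, beside 0.588% of all targets called higher and 0.113% lower (limma). Of 17 genes of the conjugation machinery that brings IRG and GBP proteins to vacuoles, such as Atg5, Atg7 and the Gabarap genes, 0 were called (limma), with a median log2 difference of -0.07. An unadjusted p under 0.05 was reached by 2 of the 17, which went opposite ways, Rnf213 at 1.18 and Ubqln2 at -0.81, and by 12.7% of all targets. Rnf213, a giant ubiquitin ligase that is itself interferon-inducible, came nearest, at 172, 231 and 310 Q3-scaled units against 102, 94.5 and 107 and a limma adjusted p of 0.0612. It passed the threshold with a common total (limma adjusted p = 0.0430), with quantile normalization (0.0338) and without Cd274F/F region 1 (0.0020), where Ubqln2 and Map1lc3a were called lower, and it had a log2 difference of -0.12 as deposited. Atg5 and Atg7 had log2 differences of 0.53 and 0.15. Of 9 genes listed for inflammasomes and linked cell death, 1 was called (limma). This was Zbp1, a sensor of unusual nucleic acids, which rose by 2.10 ± 0.26 (SE, limma adjusted p = 0.0040) and kept its call with each region left out. Casp4, the sensor of cytosolic lipopolysaccharide, and Gsdmd, which forms the pores of pyroptosis, had log2 differences of 0.54 and -0.11 without a call. None of 6 prenylation enzymes, which attach the lipid anchors of some GBP proteins, was called (limma), and 0 had an unadjusted p under 0.05. Of 11 large GTPases of the dynamin superfamily outside the GBP family, 0 were called and 1 had an unadjusted p under 0.05 (limma), with differences from -0.42 for Opa1 to 0.64 for Ehd3 and a median of -0.05. Dnm2, the ubiquitous dynamin, read 57.4, 47.9 and 46.0 against 41.6, 53.0 and 53.0.

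Targets were ordered by how near their pattern over the 6 regions lay to the mean of the 9 GTPase genes, itself a pattern chosen on the genotype contrast. Nearness was the root mean square difference between log2 values centred on their own mean, over 13255 targets outside the 9, where the median over all targets was 1.12. The 10 nearest, at 0.22 to 0.33, included H2-Ab1, Ly6c1, H2-Eb1, H2-Aa, Astn2, Aox3, Psmb9, H2-K1 and H2-DMb2. H2-Ab1, a class II chain, read 1099, 651 and 772 Q3-scaled units in the Cd274F/F regions and 145, 232 and 312 in the Cd274+/+ regions, highest in Cd274F/F region 1 like the IRG genes. Ly6c1, a surface protein of endothelial cells and some leukocytes, read 172, 107 and 99.8 against 19.6, 35.3 and 32.9. Of the 10, H2-Ab1, H2-Eb1, H2-Aa and H2-DMb2 encode class II molecules or their loading factor, H2-K1 a class I chain and Psmb9 an immunoproteasome subunit. Astn2 lay under the negative probe in the Cd274+/+ regions, at 3.58 ± 0.66 units. Among the 9 themselves the value ran from 0.16 for Igtp and Gbp3 to 0.49 for Tgtp1.

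Markers of other cell types moved with the groups to different degrees, and their part in the GTPase differences was not tested. Beside the counts below, 9.99% of all targets lay wholly above and 9.06% wholly below in the Cd274F/F regions. An unadjusted p under 0.05 was reached by 12.7% of all targets, and 0.588% were called higher and 0.113% lower (limma). The 8 measured of 17 listed T and NK cell markers, 0 of them called (limma, 4 at an unadjusted p under 0.05), summed to 85.1, 183 and 192 Q3-scaled units in the Cd274F/F regions and 62.7, 70.6 and 78.1 in the Cd274+/+ regions. All 8 had a log2 difference above 0. Trac, Cd2, Cd4 and Cd8a were higher in each Cd274F/F region than in any Cd274+/+ region, and Cd3e, Cd3g, Cd247 and Nkg7 overlapped. In the Cd274+/+ regions 6 of the 8 had means under 2 times the negative probe. Trac, Cd2, Cd4 and Cd8a were among these, at 1.72, 1.47, 1.43 and 1.45 times, so they separated from near background. In Cd274F/F region 1, which had the lowest sum of its group, the 8 markers ran from 0.776 times the negative probe for Nkg7 to 3.49 times for Cd8a. Ptprc, the gene of the CD45 protein that the mask avoided, was present in every region, at 29.6, 58.8 and 55.0 units in the Cd274F/F regions and 21.2, 26.8 and 30.3 in the Cd274+/+ regions, or 8.28 and 5.35 times the negative probe on average, with overlap and a log2 difference of 0.80 ± 0.29 (SE, limma adjusted p = 0.274). The 7 measured B and plasma cell markers summed to 4116, 847 and 466 against 72.5, 95.1 and 106, highest in Cd274F/F region 1, with Igha, Igkc and Jchain called. The sum of the 12 macrophage and monocyte markers overlapped between groups, at 655 to 949 and 489 to 831. Csf1r, Lyz2 and Fcgr1 of this list lay wholly higher in the Cd274F/F regions, and Lyz2 alone was called. The sum of the 5 dendritic cell markers did not overlap, at 77.7 to 126 and 54.0 to 63.8, with 0 called. Of the single dendritic cell markers only Itgax lay wholly higher, and the others overlapped. The 11 endothelial markers summed to 172 to 400 and 181 to 481 and the 10 hepatocyte markers to 3532 to 10589 and 3477 to 4706, with overlap. Among the hepatocyte markers Fabp1 and Mup13 were called higher, while Hnf4a lay wholly lower without a call, at -1.02 (limma adjusted p = 0.080). Of these 10 markers 6 had a log2 difference above 0. The 4 neutrophil markers summed to 55.5 to 67.5 and 107 to 140, with S100a8 and S100a9 called lower. The other neutrophil markers, Csf3r and Cxcr2, overlapped between groups, with log2 differences of 0.16 and 0.39. The 9 biliary and tumour epithelial markers summed to 1557 to 3524 and 3782 to 6532 and the 17 fibroblast and stellate cell markers to 4377 to 6090 and 6806 to 9461, both wholly lower in the Cd274F/F regions, with 0 single genes called. Col1a1 and Col3a1 made up most of the fibroblast and stellate cell sum and were the 2 of its 17 genes that lay wholly lower, while 7 of the 17, among them Thy1 at 1.00 and Pdgfra at 0.43, had a log2 difference above 0 and the median was -0.17. No marker of these lists was at 0 in all regions.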

How the data were processed

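Tags of GeoMx mouse whole transcriptome probes were collected from Desmin-positive, CD45-negative areas of 6 regions, amplified and sequenced, per the labels' protocols. The deposited signal values, 13264 targets and a negative probe per region, carry a scaling by the authors that no source used here describes, and tag counting, target choice and genome build are likewise not given. In each column 99.98% of values were whole multiples of a step within 0.01 step, with smallest values of 1 to 4 steps. Whole tags were not established, so no count model was used. Each region was scaled to a common 75th percentile (Q3). All targets were fitted with limma 3.58.1 in R 4.3.3 (lmFit, eBayes with trend) on log2(value + 1), Cd274F/F minus Cd274+/+, 3 regions against 3, with Benjamini-Hochberg adjustment and no filter. With 3 regions a group, the smallest two-sided p of an exact permutation test is 0.1. Nothing says that regions are separate animals, and p-values measure only the spread between regions. The fit was tested on simulated data.

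The 10 genes and all lists were chosen with earlier results of these data known. Named are all listed genes, all measured family genes, called genes and up to 4 genes with the smallest p of each further list (not every one printed), and the 10 nearest patterns. Other genes, among them Gm12185, and the 11-base arrangement were chosen after values or sequences were seen. Of the target names 13203 are RefSeq symbols and 13 synonyms (GRCm38.p6). Promoters are from RefSeq. Columns left out: 0. Figures: matplotlib 3.10.9, Python 3.11.15. Alternatives were other scalings, subtraction of the negative probe, pseudocounts of 0.5 and 5, no trend, a filter at 2 times the negative probe, and each region left out. Some genes of the lists count in the totals and are not reported here.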

Additional observations from a re-analysis of the deposited data

How the results depend on the processing

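The log2 differences of the 9 GTPase genes stayed above 0 under all 15 alternatives run, and with all regions kept their median was 1.84 to 2.55, except with values as deposited, where it was 0.87 (2.09 above the median target). With values as deposited 21 targets were called higher and 9905 lower, 5 of the 9 GTPase genes higher beside 0.158% of all targets, 0 other family genes higher, and 0 genes of interferon receptor signalling higher and 10 lower, with the shared shift of -1.22 in every one. Scaled to a common negative probe, limma called 18 targets higher and 5 lower, 3 GTPase genes (Gbp2, Gbp3 and Gvin1), 0 other family genes and 0 signalling genes, with 1640 targets at an unadjusted p under 0.05. Without a mean-variance trend limma called 0 targets higher or lower and 0 genes in each of the 3 lists, with 1577 targets at an unadjusted p under 0.05 and a smallest adjusted p of 0.0629. With the negative probe subtracted 55 targets were called higher, and of the other family genes 1, Gbp6. Common-total scaling, quantile normalization, pseudocounts of 0.5 and 5 and the filter on low values kept these counts within 1.5 times, while Rnf213 of the conjugation list, with 0 called, was called with a common total and with quantile normalization. With each region left out in turn, targets called higher ran from 15 (without Cd274+/+ region 1) to 541 (without Cd274F/F region 1) and lower from 0 to 489, in the same fits. GTPase genes called were 2 (Gbp2 and Gvin1) without Cd274F/F region 3 or Cd274+/+ region 1, 3 and 5 without Cd274+/+ region 2 or 3, 8 without Cd274F/F region 2 and 9 without Cd274F/F region 1. In these fits, in the same order, 19, 15, 20, 33, 69 and 541 of all 13264 targets were called higher, and nothing is read from the contrast. Other family genes called ran from 1 to 6, signalling genes higher from 0 to 4 and lower from 0 to 1, each highest without Cd274F/F region 1, and the median difference of the 9 genes from 1.68 (without Cd274F/F region 1) to 2.35. The causes were not tested. The planned quasi-likelihood count test was not run, since whole tags were not established. No paired analysis was possible because the labels give the groups no shared replicate numbers. Low tag numbers in Cd274F/F region 2, and GBP levels near the negative probe in the Cd274+/+ regions, limit the size of single differences.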
